A study of Mus musculus with 4 samples.

Results

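The 10 genes described here encode proteins of megakaryocytes and of the platelets that megakaryocytes shed: Vwf, Pf4, Gp1ba, Gp5, Gp6, Gp9, Treml1, Tubb1, Selp and Mmrn1. Accessible regions were assigned to a gene when a peak overlapped its annotated body or the 10 kb on either side of it (mm10), and by this rule 22 of 37887 WT peaks and 20 of 37615 KO peaks on the autosomes and chromosome X belonged to the 10 genes, out of 21755 protein-coding genes in all. Open chromatin had been profiled by ATAC-seq, where the Tn5 transposase inserts adapters into exposed DNA, on 5000 sorted hematopoietic stem cells (HSCs) per sample from the bone marrow of adult C57BL/6 mice. WT mice carried floxed Med23, a subunit of the mediator complex, without cre, and KO mice carried the same floxed alleles with Mx1-cre, an interferon-inducible cre that the study switched on with poly(I:C) and that deletes in hematopoietic and other interferon-responsive cells. HSCs were gated as LSK cells (lineage marker negative, Sca1 and cKit positive) that were CD150+CD34-CD48- by the labels, while the study's ATAC-seq methods name CD150 and CD48 but not CD34. The labels list 2 samples per genotype, but both name the same list of peaks, so 1 WT list and 1 KO list were compared, no replicate spread was at hand for any test, and every interval given covers counting error only.

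Megakaryocytes are large polyploid marrow cells that release platelets, the cell fragments that plug injured vessels. Their differentiation is driven by GATA, ETS, RUNX and NF-E2 family transcription factors, and part of the HSC pool is known to transcribe some platelet genes, Vwf among them, before any lineage decision. A platelet binds exposed von Willebrand factor through the GPIb-IX-V receptor complex, binds collagen through glycoprotein VI, and then discharges granules that hold chemokines and adhesion proteins. ATAC-seq reports which promoters and enhancers of such genes are exposed, not whether the genes are transcribed. In bulk data a site that is moderately open in all cells and a site that is wide open in a few cells cannot be told apart.

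The signal given for each peak is the pileup, the number of overlapping fragments or reads at its summit, recovered from the deposited fold enrichment and −log10 p. Read totals are unknown. Over all peaks the median was 18 for WT and 19 for KO, and the background across the genome came to 1.19 and 1.13. The labelled cell type was checked on 6 stem cell marker genes (Kit, Ly6a, Slamf1, Procr, Mecom and Hlf), and all 6 had a peak in their window in both lists, 3 of them at the promoter. Genes with a peak or a promoter peak are common (75.6% and 61.1% of all genes in WT), so these counts do not single out stem cells.

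In WT cells 9 of the 10 genes had at least 1 peak in their window, and in KO cells 8 had one, near the 75.6% and 74.8% of all protein-coding genes. Gp9 counted in WT, and Tubb1 in KO, through peaks at the starts of other genes, and with the gene bodies alone 8 genes had a peak in WT and 7 in KO. Gp6 had no peak in either list, and Treml1 had one in the WT list only. A peak summit within 1000 bp of an annotated start site of the gene, here called a promoter peak, was found at 5 genes in WT (Vwf, Pf4, Gp1ba, Treml1 and Mmrn1) and at 6 in KO (Vwf, Pf4, Gp1ba, Gp5, Gp9 and Mmrn1). The share among all genes was 61.1% in WT and 60.8% in KO, so at promoters the 10 genes were near the background. Away from every start site, 6 of the 10 genes had a peak in WT and 3 in KO, with 38.5% and 38.2% of all genes having one. Gp5 counted here in WT and as a promoter peak in KO, because the summits of its overlapping peaks differed in place. Gp1ba and Tubb1 counted through WT peaks with pileups of 8 and 15 that had no KO overlap. Relative to window length, the median gene of the 10 had 39.2 covered bp per kb in WT and 42.5 in KO, against 21.6 and 21.0 over all genes. These values include peaks at the starts of other genes, among them all of the KO coverage of Tubb1 (39.0 bp per kb). The windows were also shorter, with a median of 27.2 kb against 37.4 kb. The higher coverage is therefore not a measure of the 10 genes' own sites.

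**Figure D1:**
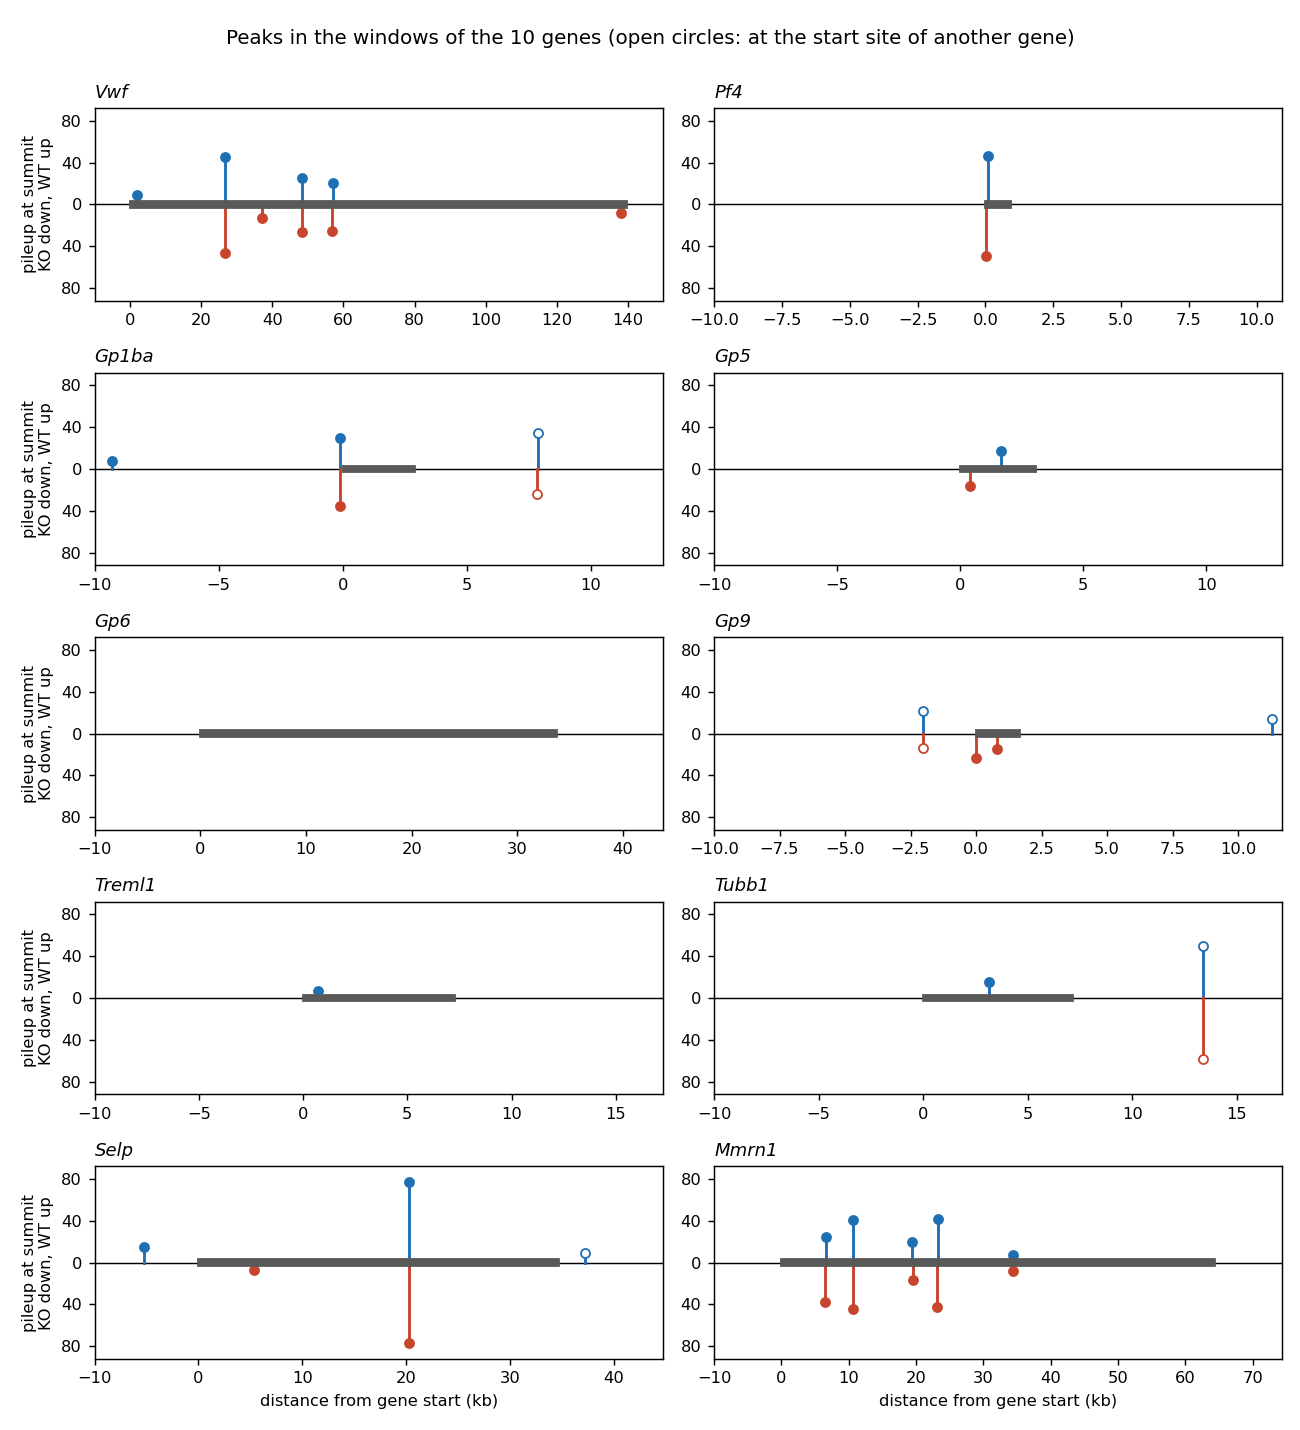
Peaks in the window of each of the 10 genes, plotted by distance of the summit from the gene start in the direction of transcription (kb, a different range in each panel), with pileup at the summit upward for WT (blue) and downward for KO (red). The grey bar is the gene body, and open circles mark peaks whose summit lies at the start site of another gene. Selp and Mmrn1 carry their tallest peaks inside the gene and Pf4 at its start, Gp1ba has a peak at its start (30 in WT) and another at the start of Slc25a11 (34 in WT), and the Gp6 panel is empty.

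The choice of start site mattered at Vwf and Mmrn1. With the annotated gene start alone, 3 genes had a promoter peak in WT (Pf4, Gp1ba and Treml1) and 4 in KO (Pf4, Gp1ba, Gp5 and Gp9), since the Mmrn1 peak lay at a coding start 19.4 kb inside the annotated gene. The share over all genes was not computed for this rule. The Vwf summits at 57.2 kb (WT) and 56.7 kb (KO) lay near the start of a non-coding transcript inside the gene, and no peak lay within 1000 bp of the start of the principal coding transcript. When only starts of principal transcripts counted, a rule added after the values were seen, 4 genes had a promoter peak in WT (Pf4, Gp1ba, Treml1 and Mmrn1) and 5 in KO (Pf4, Gp1ba, Gp5, Gp9 and Mmrn1), with a background of 57.8% and 57.4%. The annotated first base of the gene itself was covered by a peak at 2 genes in WT (Pf4 and Gp1ba) and at 4 in KO (Pf4, Gp1ba, Gp5 and Gp9). Over all genes this share was 50.3% in WT and 50.2% in KO, above that of the 10 genes in both lists.

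The promoters of these genes were poor in CpG dinucleotides, and this sets what share of promoters to compare them with. RefSeq gave the 300 bp around the start (250 bp before and 50 bp after it, GRCm38.p6) for 9 of the 10 genes, all but Vwf. They held a median of 3 CpG dinucleotides (range 0 to 5), against a median of 14 over 20061 promoters of coding genes. Across all these promoters 56.3% overlapped a WT peak and 55.8% a KO peak. Among the 6124 promoters with at most 5 CpG, a limit set at the highest count of the 9 genes, the shares were 9.36% in WT and 9.29% in KO. Of the 9 genes, 3 (Pf4, Gp1ba and Mmrn1) had a WT peak over this window, and the same 3 plus Gp5 and Gp9 had a KO peak, which is 33.3% and 55.6%. The shares of the 9 genes thus lay below or near those of promoters at large and above those of promoters with like CpG counts. Only 9 genes stand behind them, and they were not tested.

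**Figure D2:**
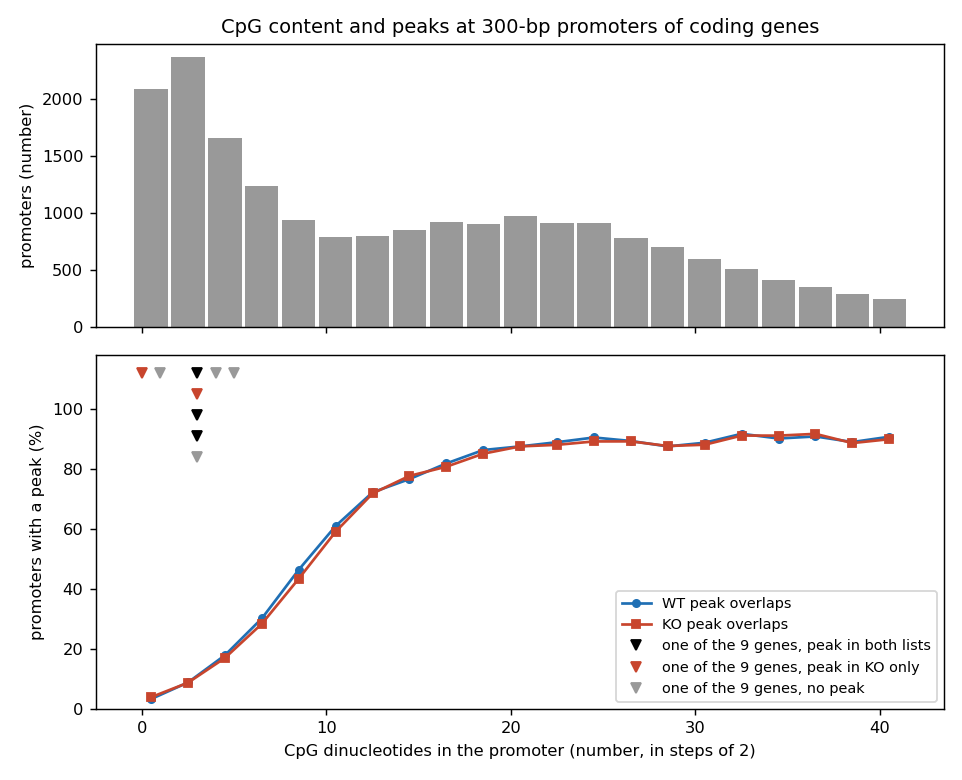
Upper panel, number of RefSeq 300-bp promoters of coding genes by CpG dinucleotides per promoter, in steps of 2 and up to 41 CpG. Lower panel, share of those promoters that overlap a WT peak (blue) or a KO peak (red), in percent; triangles place the 9 genes by their own CpG count, and their height carries no value. All 9 genes sit at 5 CpG or fewer, where few promoters have a peak, and 5 of the 9 triangles are black (peak in both lists) or red (KO only).

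To show what the accessible promoters hold, the 200 bases before the RefSeq start are printed for the 5 genes whose RefSeq promoter window overlapped a peak in at least 1 list, from the coding strand, 5′ to 3′, in GRCm38.p6. Capitals mark, on either strand, the letters of 4 families of binding motif. For the GATA family these were AGATAA or else TGATAA. For the ETS family they were AGGAAG or else CGGAAG, for the RUNX family TGTGGT or else TGCGGT, and for the NF-E2/AP-1 family TGAGTCA or else TGACTCA. The stretches are chr5:90772235-90772434 for Pf4, chr11:70638922-70639121 for Gp1ba, chr16:30310782-30310981 on the minus strand for Gp5, chr6:87777870-87778069 for Gp9 and chr6:60944117-60944316 for Mmrn1.
Pf4: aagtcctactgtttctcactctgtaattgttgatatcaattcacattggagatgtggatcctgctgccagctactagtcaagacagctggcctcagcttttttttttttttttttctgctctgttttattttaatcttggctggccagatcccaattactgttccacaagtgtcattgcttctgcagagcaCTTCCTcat
Gp1ba: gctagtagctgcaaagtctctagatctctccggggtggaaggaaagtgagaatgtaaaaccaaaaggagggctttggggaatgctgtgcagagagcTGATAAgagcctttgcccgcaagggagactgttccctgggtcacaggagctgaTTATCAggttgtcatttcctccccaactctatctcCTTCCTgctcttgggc
Gp5: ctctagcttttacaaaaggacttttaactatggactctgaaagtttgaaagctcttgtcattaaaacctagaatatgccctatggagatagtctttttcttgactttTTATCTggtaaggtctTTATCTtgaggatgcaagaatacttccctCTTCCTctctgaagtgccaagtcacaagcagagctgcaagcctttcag
Gp9: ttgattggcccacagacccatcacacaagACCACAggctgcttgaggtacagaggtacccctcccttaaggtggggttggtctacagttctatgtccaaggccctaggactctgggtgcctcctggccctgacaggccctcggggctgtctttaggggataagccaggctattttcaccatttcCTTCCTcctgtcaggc
Mmrn1: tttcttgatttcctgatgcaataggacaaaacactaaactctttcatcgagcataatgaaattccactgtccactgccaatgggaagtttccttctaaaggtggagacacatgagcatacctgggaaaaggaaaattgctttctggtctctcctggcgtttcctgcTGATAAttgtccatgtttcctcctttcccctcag
Gp1ba and Gp5 each held 2 GATA matches and 1 ETS match in these 200 bases. Pf4 held 1 ETS match, Mmrn1 held 1 GATA match, and Gp9 held 1 ETS and 1 RUNX match with no GATA match. Over the full 300-bp windows, GATA letters were present in 5 of the 9 promoters (55.6%) against 15.2% of all promoters, and GATA together with ETS letters in 3 (33.3%) against 6.47%. ETS letters were present in 6 (66.7% against 48.8%), RUNX letters in 1 (11.1% against 21.4%) and NF-E2/AP-1 letters in 0 (4.65% of all promoters). These shares are over promoters of every CpG count, and none was computed for promoters as poor in CpG as the 9, so enrichment beyond base content was not tested. Gp6, which had no peak, was among the 5 with GATA letters. A match is a run of letters and not evidence that a factor was bound.

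Pf4 encodes platelet factor 4, a chemokine stored in platelet alpha granules (ENSMUSG00000029373.7, chr5:90772435-90773383). It had a single peak in each list, over its start, spanning 90771588-90773071 in WT cells and 90771611-90773004 in KO cells. The summit reached a pileup of 46 in WT and 49 in KO, at percentiles 86.7 and 86.8 of the lists. The log2 ratio of KO to WT over background was 0.18 (exact binomial 95% interval −0.43 to 0.79), beside a median of 0.17 over all shared regions. Of the 10 genes, Pf4 thus had the strongest promoter peak in both lists. The window overlaps that of the neighbouring chemokine gene Ppbp, which had no promoter peak of its own in either list.

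The GPIb-IX-V complex, the receptor for von Willebrand factor, has 3 subunit genes among the 10. The gene of its remaining subunit, Gp1bb, named here after its values were seen, had a promoter peak in both lists with a pileup of 13 in WT and 16 in KO. Gp1ba encodes the subunit that carries the ligand-binding site (ENSMUSG00000050675.7, chr11:70639122-70642036) and had a promoter peak in both lists, with a pileup of 30 in WT and 35 in KO and summits 123 bp and 117 bp before the start. The log2 ratio was 0.31 (−0.44 to 1.06). The printed GATA letters of Gp1ba fall within this peak. The same window held the start of Slc25a11, a mitochondrial carrier gene, with 34 in WT and 24 in KO (log2 ratio −0.42, −1.23 to 0.38), and a weak WT peak at −9.31 kb with a pileup of 8.

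Gp5 encodes glycoprotein V, the subunit cleaved by thrombin (ENSMUSG00000047953.7, chr16:30307685-30310779, minus strand), and had 1 broad peak in each list. Its pileup of 17 in WT was matched by 16 in KO, with 0.00 as log2 ratio (−1.08 to 1.07). The WT peak ran from 30308469 to 30310263 and stopped short of the start, with its summit 1.67 kb downstream in the coding exon. The KO peak ran from 30308504 to 30310868, over the start, with its summit 0.383 kb downstream. The summits lay 1284 bp apart, so the log2 ratio compares 2 different places in the overlapping peaks. The promoter call in KO alone went with the place of the summit and with the reach of the KO peak over the start, at a like summit pileup.

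Gp9 encodes glycoprotein IX (ENSMUSG00000030054.4, chr6:87778072-87779768), and it was the gene with the clearest difference between the lists. In KO a peak from 87777826 to 87778165 had its summit 9 bp before the start with a pileup of 23, and a second, from 87778636 to 87779061, had its summit 0.798 kb into the gene with a pileup of 15. Neither overlapped a WT peak, although at the local background of those KO peaks a pileup of 9 or 10 would have reached the weakest p-value in the WT list. Of the 7805 KO peaks without a WT overlap, 5.37% had a pileup of 23 or more. Genes with a promoter peak in the KO list only made up 2.69% of all genes, and those with one in the WT list only made up 3.07%. A shared region at −2.03 kb from the start of Gp9, at the start of the lincRNA gene Gm43904, went the other way, with 22 in WT and 14 in KO (log2 ratio −0.57, −1.65 to 0.47). A WT peak with a pileup of 14 near the start of Rab43, a small GTPase gene, had no KO counterpart.

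Gp6 encodes glycoprotein VI, the platelet collagen receptor (ENSMUSG00000078810.4, chr7:4363965-4397744). No peak lay in its window in either list. The nearest was 29.5 kb from the gene in WT with a pileup of 20, and 29.4 kb from it in KO with a pileup of 38. A peak list holds only regions past the caller's threshold, so weaker accessibility at Gp6 was not detectable at this depth.

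The tallest peaks of Selp, Vwf and Mmrn1 lay in introns. Here the 151 bases centred on a WT summit are printed from the plus strand of GRCm38.p6, with the same letters in capitals: the tallest peaks of Selp (chr1:164135511-164135661) and Vwf (chr6:125573339-125573489), 1 of the intronic Mmrn1 sites (chr6:60935519-60935669), and, as intronic sites of the WT list alone, those in Tubb1 (chr2:174453792-174453942) and Treml1 (chr17:48360572-48360722). The Treml1 site counted above as a promoter peak, since its summit lay within 1000 bp of a start, and it was weak.
Selp: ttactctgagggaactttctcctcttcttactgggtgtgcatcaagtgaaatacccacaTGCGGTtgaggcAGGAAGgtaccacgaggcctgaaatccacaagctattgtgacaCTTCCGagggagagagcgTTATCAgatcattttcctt
Vwf: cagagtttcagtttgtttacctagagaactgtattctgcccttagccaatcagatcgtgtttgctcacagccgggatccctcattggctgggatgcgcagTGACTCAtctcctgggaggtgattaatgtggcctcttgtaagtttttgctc
Mmrn1 intron: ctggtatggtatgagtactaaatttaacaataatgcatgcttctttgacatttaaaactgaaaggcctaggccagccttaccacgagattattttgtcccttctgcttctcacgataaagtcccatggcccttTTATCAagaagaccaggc
Tubb1: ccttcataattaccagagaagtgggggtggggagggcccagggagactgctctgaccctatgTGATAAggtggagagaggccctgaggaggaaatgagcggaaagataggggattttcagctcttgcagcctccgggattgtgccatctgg
Treml1: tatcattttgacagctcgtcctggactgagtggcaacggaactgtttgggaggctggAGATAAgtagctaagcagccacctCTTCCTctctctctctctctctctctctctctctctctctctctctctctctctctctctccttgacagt
The Selp site held GATA, ETS and RUNX letters within these bases. The Vwf site held NF-E2/AP-1 letters alone, and the Mmrn1 and Tubb1 sites GATA letters alone. The Treml1 site held GATA and ETS letters beside a long dinucleotide repeat.

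Selp encodes P-selectin, an adhesion receptor of the alpha granule membrane that is also made by endothelial cells (ENSMUSG00000026580.16, chr1:164115264-164150026). Its intronic site 20.3 kb from the gene start had a pileup of 77 in WT and 77 in KO, the highest of any peak of the 10 genes, at percentiles 95.9 and 95.1. The log2 ratio was 0.09 (−0.39 to 0.56). The Selp promoter itself had no peak in either list. The other Selp peaks were weak and each in 1 list only, with WT pileups of 15 at −5.26 kb and 9 at the start of the lincRNA gene Gm16548, and a KO pileup of 7 at 5.35 kb into the gene.

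Vwf encodes von Willebrand factor, the large multimeric protein that tethers platelets to the vessel wall (ENSMUSG00000001930.17, chr6:125546774-125686679). It had 3 shared sites, all inside the gene. At 26.6 kb from the gene start the pileup was 45 in WT and 46 in KO (log2 ratio 0.12, −0.51 to 0.74), at 48.3 kb it was 25 and 26 (0.14, −0.71 to 0.99), and at about 57 kb it was 21 and 25 (0.34, −0.56 to 1.25). The KO pileup was the higher one at each site, but relative to the median ratio of all shared regions the log2 values were −0.05, −0.02 and 0.17, on both sides of 0. A WT peak at 1.82 kb (pileup 9) and KO peaks at 37.2 kb (13) and 138 kb (8) were each in 1 list only, and the last of these lay near another internal non-coding start.

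Mmrn1 encodes multimerin 1, an alpha granule protein that binds coagulation factor V (ENSMUSG00000054641.10, chr6:60924976-60989378). With 5 peaks in each list, all shared, it was the gene with the most peaks in the WT list and equalled Vwf in the KO list. The peak at its coding start, 19.4 kb from the annotated gene start, had a pileup of 20 in WT and 17 in KO (log2 ratio −0.15, −1.17 to 0.86). The 3 intronic sites around it were stronger. The site at 6.59 kb had 25 in WT and 38 in KO (0.69, −0.08 to 1.48), the one at 10.6 kb had 41 and 44 (0.19, −0.46 to 0.84), and the one at 23.2 kb had 42 and 42 (0.09, −0.57 to 0.74). The first of these had the highest ratio among the shared regions of the 10 genes, at percentile 90.3 of all shared regions, and its interval held the overall median. The last site, at 34.4 kb, had 7 in WT and 8 in KO, and there the peaks shared only 9 bp.

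Tubb1 encodes the beta-tubulin of the platelet marginal band (ENSMUSG00000016255.5, chr2:174450695-174457882), and Treml1 a receptor of the alpha granule membrane (ENSMUSG00000023993.7, chr17:48359916-48367176). Each had 1 peak of its own, and in the WT list alone. The Tubb1 peak lay 3.17 kb into the gene with a pileup of 15, and 14.1% of the 8210 WT peaks without a KO overlap were at least as high. The Treml1 peak lay 0.731 kb into the gene with a pileup of 7, at percentile 3.26 of the WT list, so it was among the weakest peaks called. In KO the nearest peak to Treml1 was 17.6 kb away. The tall peak in the Tubb1 window, with 50 in WT and 58 in KO, lay at the start of Atp5e, a subunit gene of the mitochondrial ATP synthase.

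The lists were then compared over all peaks of the 10 genes. Of the 22 WT peaks, 15 overlapped a KO peak (68.2%, exact 95% interval 45.1 to 86.1), and of the 20 KO peaks, 15 overlapped a WT peak (75.0%, 50.9 to 91.3). Genome-wide, 21.7% of WT peaks lacked a KO overlap and 20.7% of KO peaks a WT overlap, so 7 of 22 and 5 of 20 were near the background. Peaks in 1 list only were weak, with a median pileup of 9 for the 7 in WT (range 7 to 15) and 13 for the 5 in KO (range 7 to 23), against 30 and 35 for the shared ones. The bases covered in the 10 windows were 16422 in WT and 16489 in KO.

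Summed over the 15 shared regions, the pileup reached 502 for WT against 519 for KO, a ratio over background of 1.10 (exact binomial 95% interval 0.969 to 1.24), beside a median ratio of 1.12 over all 28909 shared regions. The median log2 ratio was 0.14 (range −0.57 to 0.69), against 0.17 over all regions with an SD of 0.42 across them. All 15 intervals held that median. Of the 15, none was higher and 1 was lower than the overall median by more than 1.5-fold, namely the Gm43904 start upstream of Gp9, and over all shared regions 7.64% were higher and 7.91% lower. Neither the median nor the called count set the shared regions of the 10 genes apart from shared regions at large.

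**Figure D3:**
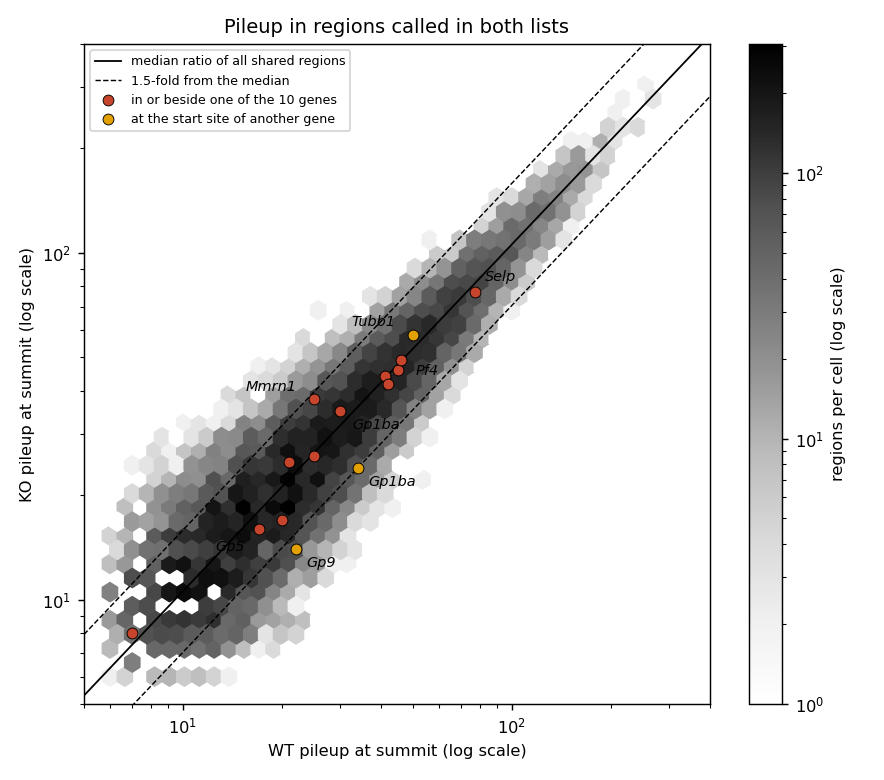
Summit pileup in KO against WT, both on log scales, for the 28909 regions with 1 peak in each list (grey shading, number of regions per hexagon) and the 15 regions in the windows of the 10 genes (red, in or beside the gene; yellow, at the start of another gene). The solid line is the median ratio of all regions and the dashed lines lie 1.5-fold from it; all coloured points except the one at the start upstream of Gp9 lie between the dashed lines.

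Sequence around the summits was compared next, in windows of 200 bp. GATA letters were found at 7 of 22 WT summits (31.8%) and 7 of 20 KO summits (35.0%) of the 10 genes, against 14.2% and 13.9% of all summits. Among all summits over 1000 bp from every start site, GATA letters were at 19.8% in WT and 19.4% in KO. ETS letters were at 59.1% of WT and 65.0% of KO summits, with 47.6% and 48.7% over all and 50.6% and 52.2% away from start sites. RUNX letters were at 27.3% and 30.0%, with 24.8% and 24.9% over all and 30.0% and 30.5% away from start sites, so they were not above the latter. NF-E2/AP-1 letters were at 13.6% and 10.0%, with 6.02% and 6.16% over all and 8.09% and 8.32% away from start sites. The NF-E2/AP-1 counts rest on 3 WT peaks and 2 KO peaks. The windows with GATA letters belonged to Pf4, Gp1ba, Gp9, Treml1, Tubb1, Selp and Mmrn1 in WT, and to Vwf, Pf4, Gp1ba, Gp5, Gp9 and Mmrn1 in KO. At Gp9 the window with GATA letters lay at the start of Gm43904 in both lists, and the KO peaks at the Gp9 promoter held none.

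**Figure D4:**
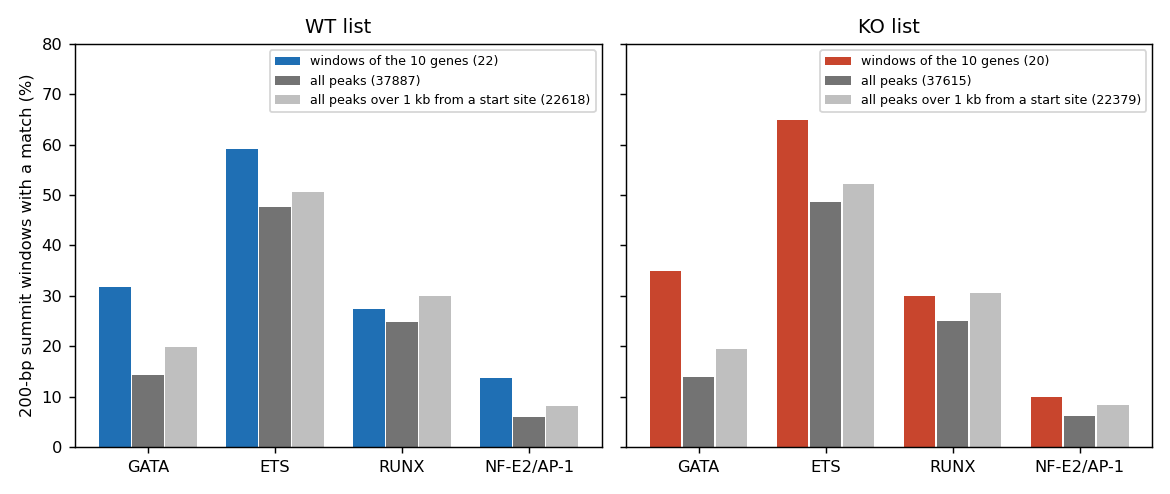
Share of 200-bp summit windows that hold GATA, ETS, RUNX or NF-E2/AP-1 letters on either strand, in percent, in the WT list (left) and the KO list (right). Coloured bars are peaks in the windows of the 10 genes, dark grey bars all peaks and light grey bars peaks over 1000 bp from every start site; the GATA share of the 10 genes is 31.8% in WT and 35.0% in KO, above both grey bars.

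A further 39 genes of the platelet program, of the same lineage and with windows assigned the same way, gave the setting. Promoter peaks were found at 32 of them in WT (82.1%) and 31 in KO (79.5%), against 61.1% and 60.8% of all genes. Any peak was found at 37 (94.9%) and 36 (92.3%), against 75.6% and 74.8%. By role, 10 of 13 receptor genes had a promoter peak in each list, 6 of 8 granule content genes in WT and 5 in KO, all 7 genes of cytoskeleton and signaling in both, and 9 of 11 transcription factor genes in both. Among transcription factor genes, high promoter pileups were found at Nfe2, which encodes a subunit of NF-E2 (82 in WT and 87 in KO), and at Zfpm1, which encodes a GATA1 cofactor (79 and 70). The WT peak of Nfe2 was not at the start of its principal transcript. Genes of other roles had high pileups too, with 73 and 74 at the receptor gene P2ry1 and 68 and 86 at the granule gene Nbeal2. Gata1, the factor that drives megakaryocyte and erythroid maturation, had no peak in its window in either list, and neither did F13a1, the gene of a coagulation factor subunit. A promoter peak was present in WT only at F5 (pileup 9) and Fcer1g (11), which encode coagulation factor V and the signaling chain paired with glycoprotein VI, and in KO only at F2rl2 (11), a thrombin receptor gene. The F2rl2 window also held a WT peak with a pileup of 24, above the highest KO pileup there (15). Its summit lay 1164 bp from the start of the principal transcript, just past the 1000 bp limit. The windows of Selp and F5 overlap.

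Genes of other mature lineages were counted in the same way. Promoter peaks were found at 5 of 10 erythroid genes in both lists, at 3 of 10 lymphoid genes in WT and 2 in KO, and at 5 of 10 mature myeloid genes in WT and 3 in KO. The share over all genes was 61.1% in WT and 60.8% in KO, so each of these lists lay below it. These lists were not compared with promoters of like CpG counts. The 10 platelet genes, with 5 in WT and 6 in KO, had as many as or 1 more than the erythroid genes. In the lymphoid list Il7r had a promoter peak in WT only (pileup 13). In the mature myeloid list the calcium-binding protein genes S100a8 (11) and S100a9 (10) and the lactoferrin gene Ltf (9) had one in WT only, and the neutrophil protease gene Prtn3 (20) in KO only. Such calls were made at 3.07% (WT only) and 2.69% (KO only) of all genes. The KO peak of Prtn3 was not at the start of its principal transcript, and WT peaks in the Prtn3 window reached a pileup of 22. Mpo and Ctsg, which define granulocyte precursors, had no peak in their windows in either list, and the same held for the red cell genes Alas2 and Slc4a1. Whether cells of another type in the gate took part in the platelet gene peaks was not tested.

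**Figure D5:**
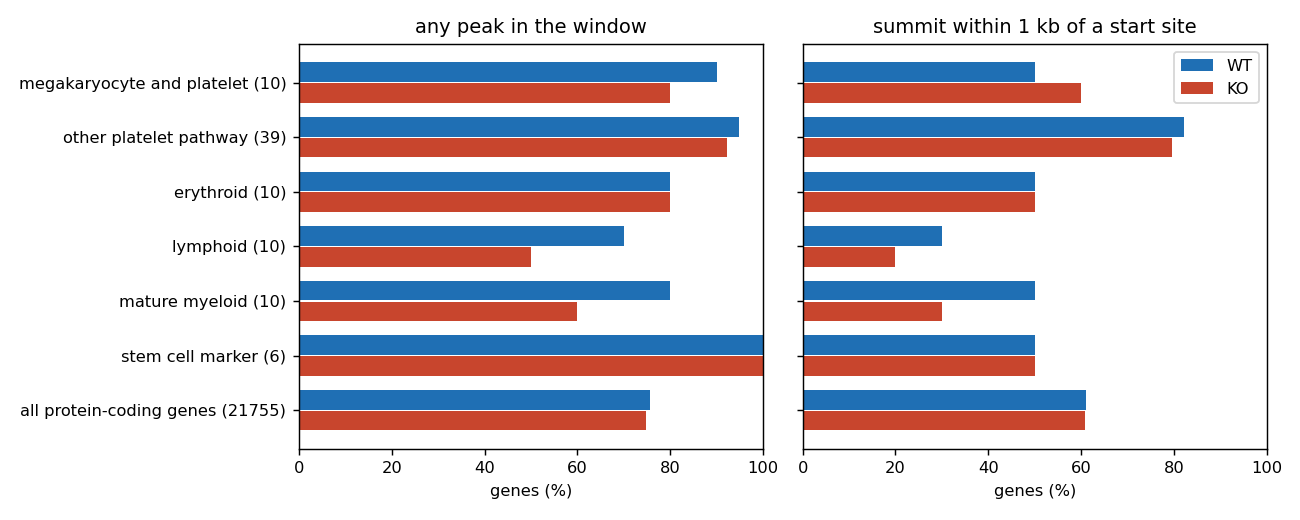
Share of genes in each list with any peak in the window (left) or with a promoter peak (right), in percent, for WT (blue) and KO (red); the number of genes stands beside each name. Of the 10 megakaryocyte and platelet genes, 9 in WT and 8 in KO have any peak and 5 and 6 a promoter peak, and the 39 further platelet program genes are higher at promoters.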

How the data were processed

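Per the study's methods, the authors trimmed reads with Trim Galore, aligned them to mm10 with Bowtie2, used Picard to drop duplicate and mitochondrial reads, and ran MACS2 without a fragment model. Versions are not given in the sources used here, nor is it said whether replicate reads were pooled. The deposited lists give per peak the authors' fold enrichment (a ratio over local background), −log10 p-value and −log10 q-value, plus a display score that was not used. Pileup and local background were solved from the deposited fold enrichment and −log10 p, and a whole number matched within 0.001 for 99.99% of peaks in each list. Genome-wide background was the median over the 1000 peaks with the lowest local background. Ratios are pileup over that background. Genes and starts came from GENCODE M21 and sequence from GRCm38.p6, both of the authors' build. Python 3.11.15, numpy 2.4.6, pandas 2.3.3 and scipy 1.17.1 were used, and recovery of pileups was tested on simulated data. The 10 genes and the gene lists were chosen with earlier results of these data known. All 10 genes were named, and of the other lists those with a promoter peak in 1 list only and up to 6 with the highest or lowest pileups, 0 included. The values of 1 gene that this rule names are not reported here. At promoters 200 bases before the RefSeq start were printed in place of a summit window.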

Additional observations from a re-analysis of the deposited data

How the results depend on the processing

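Of 58 recalculated values, 49 kept to within 1.5 times the reported count or within its counting interval. With windows of 50 kb on each side, the peaks of the 10 genes numbered 52 in WT and 46 in KO, as follows from the wider window. When only peaks with −log10 q at or above 10 counted, 10 WT and 12 KO peaks were left, 100% of the WT peaks overlapped a KO peak, and 3 genes had a promoter peak in WT and 4 in KO. At or above 5, 3 genes had a promoter peak in WT and 6 in KO, a wider gap than the 5 and 6 reported. Treml1 (−log10 q of 2.3 in WT) dropped out. Mmrn1 dropped out in WT alone, with 4.35 there and 5.45 in KO, although its WT pileup was the higher one (20 against 17). No share over all genes or all peaks was computed at either limit. With the gene start alone as start site the counts were 3 and 4. With pileup over the local background of each peak, the summed ratio in shared regions was 1.32, while the median over all shared regions moved from 1.12 to 1.26. No paired analysis was possible because the 2 replicate numbers of a genotype point to a single list, and for the same reason no replicate could be left out. Peaks under the caller's threshold and the depth of each library are not in the lists, so an absent peak is not evidence of closed chromatin.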
